A study of Mus musculus with 6 samples.

Results

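Solute carriers are membrane proteins that move amino acids, sugars, nucleosides, ions, metals, lipids and vitamins across the plasma membrane, the mitochondrial inner membrane and the membranes of lysosomes and the Golgi apparatus. The genes described here were chosen by their mean count: protein-coding genes named Slc followed by a number, with a mean of at least 100 counts over the 6 libraries, without 9 genes set aside by name (Slc2a1, Slc2a3, Slc7a11, Slc11a1, Slc11a2, Slc16a1, Slc16a3, Slc18a2 and Slc40a1). Of 373 protein-coding Slc genes in the table, 177 reached that count and 168 were kept, of 45777 genes in all. Of the 168, 164 are counted as carriers by their symbol, among them Slc3a2, a partner chain of carriers. The other 4 are named after a carrier without being one (Slc4a1ap, Slc7a6os, Slc9a3r1 and Slc9a3r2). That count is a level over all libraries, so the levels below are given as a description, while the difference between PGE2 and vehicle was not used in the choice.

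The RNA came from bone marrow neutrophils of wild type C57BL/6 mice, purified on a Percoll density gradient. The cells of one group spent 24 h in 10 µM PGE2, prostaglandin E2, which raises cyclic AMP through its receptors EP2 and EP4. Those of the other spent the same 24 h in DMSO, the vehicle. There were 3 libraries in each group, which the series design calls biological replicates, and the labels do not say whether a library came from 1 mouse or from pooled mice. A density gradient enriches neutrophils and does not select them by a surface marker.

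A carrier gives a cell either the means to take up or give off a substrate or the means to move it between its compartments. Amino acid carriers at the cell surface often work as exchangers, and several of them need a partner chain to reach the membrane. The carriers of the Slc25 family sit in the mitochondrial inner membrane, those of the Slc35 family mostly in the Golgi apparatus and the endoplasmic reticulum, and a further set empties lysosomes of the amino acids, peptides and metals that digestion releases there. Neutrophils are known for little mitochondrial respiration, many granules and an active phagosome, whose pH and ion content depend on carriers and pumps.

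The libraries held 42091346 to 56238941 counts. Of 12 neutrophil marker genes, all were measured, with summed levels of 234300 to 253000 TPM (a level per length of transcript, scaled to a fixed total) in the PGE2 libraries and 236200 to 244700 TPM in the vehicle libraries, and 7 of the 12 were lower with PGE2 (4 without PGE2 replicate 2 or 3). Markers of red cell precursors summed to 43600 to 123400 TPM in the PGE2 libraries and 13370 to 54840 TPM in the vehicle libraries, and 1 of 11 tested passed, as higher (11 with the replicate number as a block, 2 without vehicle replicate 2 and 0 without PGE2 replicate 2 or vehicle replicate 1 or 3). B lineage markers summed to 1296 to 2178 TPM with PGE2 and 1106 to 1514 TPM with vehicle, with 5 of 10 higher (8 with the block, 3 without PGE2 replicate 3 and 2 without vehicle replicate 1 or 2). Monocyte markers were lower for 2 of 12 (1 without PGE2 replicate 2 or 3 or vehicle replicate 1 or 2) and eosinophil markers for 3 of 6 (1 without PGE2 replicate 2 or 3), while none of the T and NK cell, basophil and mast cell, or megakaryocyte markers passed (edgeR; 1 megakaryocyte marker at an unadjusted p under 0.05, higher, and 0 with DESeq2). With the block 3 T and NK cell markers and 1 megakaryocyte marker were higher, and without PGE2 replicate 2, 1 basophil and mast cell marker was lower. No marker of these lists that the table holds was at 0 in all libraries, and the part of such cells in the changes below was not tested. In these bulk libraries, fewer cells of a type and less RNA per cell cannot be told apart.

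Mean levels of the 168 genes ran from 0.426 TPM to 246 TPM, with a median of 8.325 TPM. Of them, 77 had at least 10 TPM and 7 had less than 1 TPM. The 8 with the highest mean level were the fatty acid transport protein Slc27a4 (246 TPM), the neutral amino acid carrier Slc38a2 (229 TPM), the lysosomal peptide and histidine carrier Slc15a3 (214 TPM), the glucose transporter family member Slc2a6 (214 TPM), the mitochondrial phosphate carrier Slc25a3 (209 TPM), the taurine carrier Slc6a6 (197 TPM), the scaffold Slc9a3r1 (196 TPM) and the mitochondrial ADP/ATP carrier Slc25a5 (173 TPM). Just inside the count of 100 stood Slc9a5 with a mean count of 101.7, Slc25a42 with 102.2 and Slc19a1 with 105.7, and just outside stood Slc22a21 with 97.83, Slc5a6 with 86.17 and Slc27a2 with 83.67. A mean count of 100 was reached in both groups by 162 of the genes. In the other 6, 5 were under it in vehicle alone and did not pass, and 1, Slc26a8, was under it in PGE2 alone and passed as lower. Summed over all 168 genes, the level was 4438, 4299 and 4643 TPM in PGE2 replicates 1, 2 and 3 and 4661, 4478 and 4597 TPM in vehicle replicates 1, 2 and 3, and the groups overlapped.

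With PGE2, 14 of the 168 genes rose and 37 fell at an adjusted p of at most 0.05 (edgeR's quasi-likelihood test, Benjamini-Hochberg over all 15947 genes tested), and 117 did not pass. Of all genes tested, 10.1% were called higher and 14.3% lower, 24.4% in both directions, against 8.33% and 22.0% of the solute carriers. Genes of like level are called more often: among 10393 protein-coding genes with a mean count of at least 100, 12.4% were higher and 19.2% lower. The share of solute carriers called, 30.4%, was thus close to the 31.5% of those genes. The counts by class and list below are to be set beside these shares. Blocking on the replicate number, 33 rose and 48 fell, which kept all 51 and added 30, where 16.6% and 18.9% of all genes were called. Without vehicle replicate 2, 11 rose and 24 fell. The share of the calls that were higher was 27.5%, but 43.4% when counts were scaled by library totals, 40.7% with the block and 17.8% with the authors' TPM. Over the calls of all genes tested, that share was 41.5%, and 55.5%, 46.8% and 30.0% under the same settings.

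The changes were small for most carriers. The median log2 fold change of the 168 was -0.007, against 0.038 for all genes tested, with 82 above 0 and 86 below it. At least 2-fold changes were seen in 2 genes that rose and 4 that fell, where 2.53% and 3.78% of all genes tested moved as much. The PGE2 and vehicle libraries did not overlap for 78 of the 168, among them all 51 called, against 42.3% of all genes tested and 49.3% of the protein-coding genes of like level. Of the 117 that did not pass, 49 had a log2 fold change whose interval of 2 standard errors lay within 0.5 of 0.

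**Figure D1:**
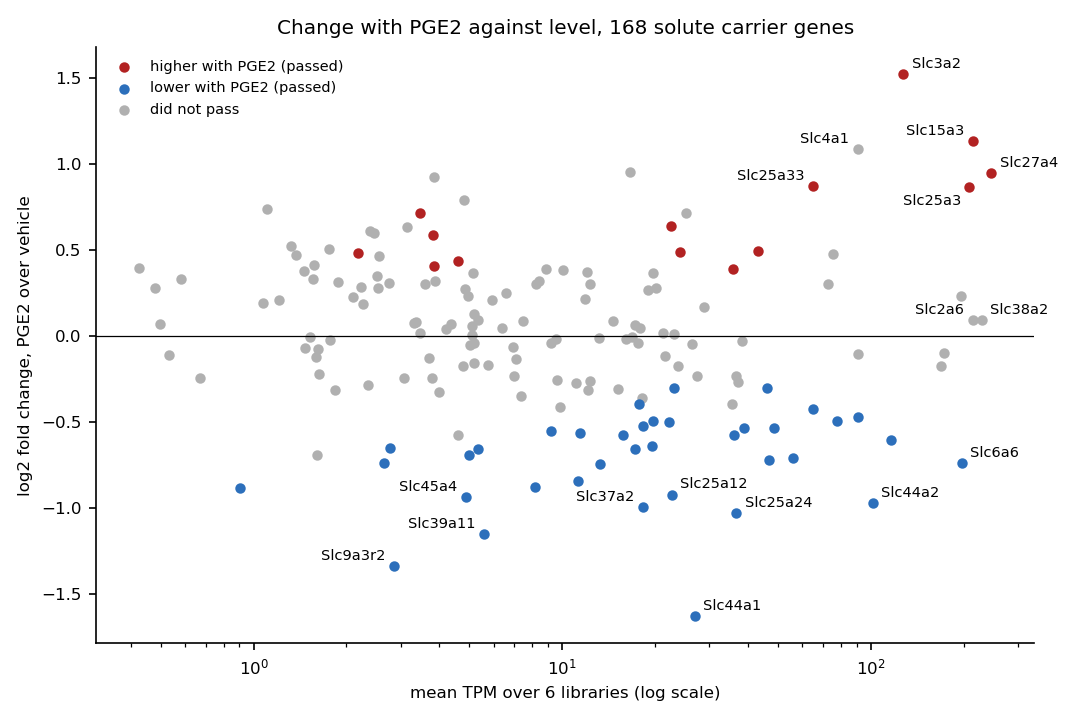
Mean level over the 6 libraries in TPM (log axis) against the log2 fold change, PGE2 over vehicle, for the 168 genes; red points passed as higher, blue points as lower, and grey points did not pass. Slc3a2 at 1.52 and Slc44a1 at -1.63 mark the ends of the range, and Slc27a4, the gene with the highest level, lies at 0.948.

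**Figure D2:**
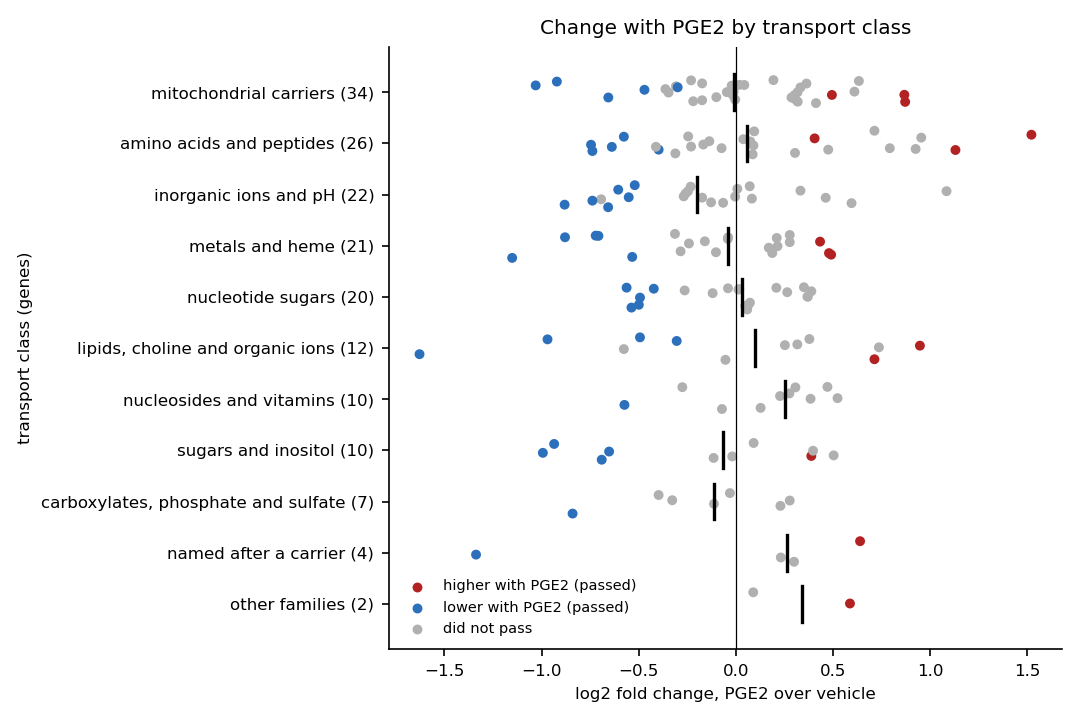
The log2 fold change of each gene, PGE2 over vehicle, by transport class, with the number of genes in parentheses; the black bar is the median of the class and colours mark the call. Every class has its median within 0.5 of 0, and the classes of inorganic ions, nucleotide sugars, nucleosides and carboxylates hold blue points and no red one.

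Among the 26 carriers of amino acids and peptides, 3 rose, 5 fell and 18 did not pass, with a median log2 fold change of 0.057. With the replicate block 9 rose and 7 fell. The largest rise of all 168 genes was that of Slc3a2 (Gene ID 17254, chromosome 19, 8706882 to 8723369 on the minus strand, build mm10), the heavy chain of CD98, which brings the light chains of the Slc7 family to the cell surface. It had 236.5, 316 and 255 CPM (counts scaled to the size of the library) in PGE2 replicates 1, 2 and 3 and 80.4, 112.5 and 88.25 CPM in vehicle replicates 1, 2 and 3. Every PGE2 library stood above every vehicle library, and the mean was 2.87-fold that of vehicle (log2 fold change 1.52 ± 0.16, adjusted p = 0.000571; here and below, the error of a log2 fold change is its SE). In each group replicate 1 was the lowest library and replicate 2 the highest, which is the order of the libraries by hemoglobin counts. Of the 51 called genes 3 had that order in both groups (5.88%, Slc3a2, Slc15a4 and Slc30a9), as did 5.12% of all genes tested. Among the 19 genes called higher with the block alone, 5 had it (26.3%), among them Slc7a5, Slc35a2, Slc25a39 and Slc9a3r1. Of the 11 called lower with the block alone, 1 had it (9.09%). The part of red cell RNA in the rise of Slc3a2 and in these values was not tested. Its level was 183.5 ± 19.2 TPM with PGE2 and 71.6 ± 13.8 TPM with vehicle (SD, n = 3 each).

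None of the 5 Slc7 carriers among the 168 genes passed, and together they came to 17.8 to 19.0 TPM with PGE2 and 16.9 to 19.4 TPM with vehicle. A further one, Slc7a11, is among the 9 genes set aside and is not in these values. Slc7a5, the light chain for large neutral amino acids, had a log2 fold change of 0.79 ± 0.31 with an adjusted p of 0.0985, and 0.00114 with the replicate block. Its libraries had the order of the hemoglobin counts in both groups. Slc7a6, Slc7a7, Slc7a8 and the cationic amino acid carrier Slc7a1 lay between -0.245 and 0.095. The glutamine carrier Slc1a5 (0.48 ± 0.195, adjusted p = 0.115) and the peptide carrier Slc15a2 (0.71 ± 0.33, adjusted p = 0.158) passed with the block alone, at 0.00212 and 0.000178. These Slc7 genes, Slc1a5 and Slc15a2 were chosen after their values were seen. Slc38a2, the most abundant amino acid carrier, had 649.8, 669 and 624 CPM with PGE2 and 608, 593 and 623 CPM with vehicle. The groups did not overlap, but the difference of 0.091 ± 0.076 did not pass (adjusted p = 0.437), and it was -0.02 on the TPM scale.

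Of the 5 Slc6 genes, whose products bring in substrates with sodium and chloride, 2 fell and 3 did not pass. Slc6a9 had a log2 fold change of 0.93 ± 0.32 and passed as higher with the block (0.00509), and Slc6a19, chosen after its values were seen, was at -0.31 ± 0.29. In the annotation, 27.8% of the exon bases of Slc6a9 are shared with Ccdc24 on the opposite strand. The taurine carrier Slc6a6 (chromosome 6, 91684048 to 91759063 on the plus strand) fell to 593, 527 and 487 CPM with PGE2, against 921, 860.1 and 898.5 CPM with vehicle, a log2 fold change of -0.74 ± 0.096 (adjusted p = 0.00134). In level it had 141 ± 19.9 TPM with PGE2 and 253 ± 24.8 TPM with vehicle, the largest difference in TPM among the carriers that fell. Taurine is abundant in neutrophils, which form taurine chloramine from it. Slc6a12, the betaine and GABA carrier, had 13.8, 12.2 and 16.8 CPM with PGE2 and 21.4, 23.95 and 26.3 CPM with vehicle and fell by 0.745 on the log2 scale (SE 0.145, adjusted p = 0.00756). Its neighbour Slc6a13, 4794 bases away on chromosome 6, was at -0.41 ± 0.22 and did not pass (adjusted p = 0.226, 0.0259 with the block). Summed, the amino acid class had 1084, 1114 and 1195 TPM in PGE2 replicates 1 to 3. In vehicle replicates 1 to 3 it had 1011, 963.6 and 995.1 TPM, and the groups did not overlap. That sum includes Slc3a2, above, and Slc15a3, with 248, 287.5 and 325 TPM with PGE2 and 133, 139.7 and 152 TPM with vehicle. With 3 genes that rose and 5 that fell, the higher sum does not stand for a rise across the class.

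Carriers of the lysosomal membrane moved in both directions. Of 12 tested on a list of 14, 2 rose and 5 fell, with a median log2 fold change of -0.301. Slc15a3 (chromosome 19, 10842544 to 10857915 on the plus strand), which moves peptides and histidine out of lysosomes, had 342, 462 and 444.5 CPM in the PGE2 libraries and 165, 198 and 207.5 CPM in the vehicle libraries, a rise of 2.19-fold (log2 fold change 1.13 ± 0.14, adjusted p = 0.00107). Of its exon bases, 28.1% are shared with Tmem132a on the opposite strand in the GENCODE annotation, and no source used here says if the strand of a read was counted. Its close relative Slc15a4, which mouse studies tie to signalling of endosomal Toll-like receptors, went the other way, with 26.2, 27.3 and 27 CPM in the PGE2 libraries and 31.5, 38.1 and 36.4 CPM in the vehicle libraries (log2 fold change -0.40 ± 0.10, adjusted p = 0.0231). The call on Slc15a4 was lost without any library but vehicle replicate 1, with adjusted p of 0.0586 to 0.0975. At 214 TPM against 17.8 TPM over all libraries, Slc15a3 was the more abundant of the pair. Whether the changes of the 2 genes differ was not tested.

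The proton-coupled amino acid carriers Slc36a1 and Slc36a4 were called in opposite directions, and their difference was not tested. Slc36a1 had 42.3, 36.3 and 37.2 CPM with PGE2 and 59.45, 56.6 and 56.5 CPM with vehicle and fell (-0.58 ± 0.09, adjusted p = 0.00301). Slc36a4 had 15.4, 13.4 and 14.9 CPM with PGE2 and 12.1, 10.4 and 10.4 CPM with vehicle and rose (0.41 ± 0.12, adjusted p = 0.0444), a call lost without any library but vehicle replicate 1 (adjusted p 0.0559 to 0.14). The other falls of the list were Slc37a2 (-0.99 ± 0.13, adjusted p = 0.00125), the heme carrier Slc48a1 (-0.53 ± 0.12, adjusted p = 0.0135; 0.0558 without vehicle replicate 2) and Slc12a9 (-0.55 ± 0.10, adjusted p = 0.00559). Slc37a2, a sugar phosphate exchanger abundant in macrophages, had 30.8, 31.1 and 32.5 CPM with PGE2 and 52.55, 61.4 and 73.7 CPM with vehicle, so that the highest PGE2 library lay well under the lowest vehicle library. The arginine sensor Slc38a9 (-0.14), Slc38a7 (-0.17), the sialic acid carrier Slc17a5 (-0.33), the nucleoside carrier Slc29a3 (-0.275) and Slc46a3 (-0.071) did not pass. Leaving out a library left 1 rise in place of 2 for every library but vehicle replicate 1, and 3 falls without vehicle replicate 2. Summed, the list came to 375.4, 389.1 and 433.2 TPM with PGE2 and 308.0, 307.2 and 329.9 TPM with vehicle, with Slc15a3 at 248, 287.5 and 325 TPM with PGE2 and 133, 139.7 and 152 TPM with vehicle.

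**Figure D3:**
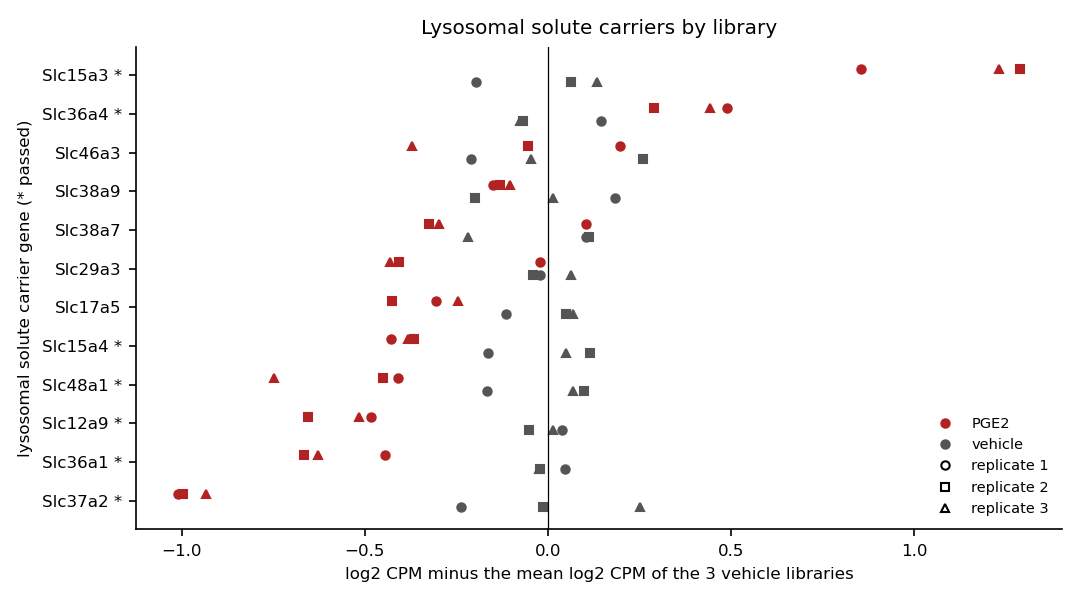
Log2 CPM of 12 lysosomal carriers in each library, less the mean log2 CPM of the 3 vehicle libraries; red points are PGE2 libraries, dark grey points vehicle libraries, shapes are replicate numbers and stars mark genes that passed. All PGE2 points of Slc15a3 lie to the right of the vehicle points and all of Slc37a2, Slc36a1, Slc12a9, Slc48a1 and Slc15a4 to the left.

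Many lysosomal genes carry E-box sequences near their start that the transcription factor TFEB is known to bind. In the RefSeq promoter windows (GRCm38.p6, 250 bases before to 50 after the start site, given for 132 of the 168 genes), the palindrome CACGTG was found in 3 of the 10 lysosomal carriers with a window, in 18.9% of the 132 genes and in 8.09% of all genes with a window. Among all 132 genes, it was in 1 of the 10 that rose (10.0%), 6 of the 26 that fell (23.1%) and 18 of the 96 that did not pass (18.8%). The 3 lysosomal carriers are Slc36a1 and Slc12a9, which fell, and Slc38a7, which did not pass. Slc15a4 and Slc37a2, which also fell, have a window without it. The windows of Slc36a1 and Slc12a9 from 250 bases before to 10 after the start are printed from 5′ to 3′ on the strand of the gene, chr11:55204090-55204349 on the plus strand and chr5:137333573-137333832 on the minus strand, with CACGTG in capitals. In Slc36a1 its first base lies 31 and 3 bases before the start, and in Slc12a9 106 bases before it. The deposited span of Slc12a9 reaches to 137340070 on this minus strand, so the start site of its window and its match lie inside the gene. That of Slc36a1 begins at 55204322 on the plus strand, so its start site and the match 3 bases before it lie inside as well. A match is a run of letters and not a measured binding site.
Slc36a1: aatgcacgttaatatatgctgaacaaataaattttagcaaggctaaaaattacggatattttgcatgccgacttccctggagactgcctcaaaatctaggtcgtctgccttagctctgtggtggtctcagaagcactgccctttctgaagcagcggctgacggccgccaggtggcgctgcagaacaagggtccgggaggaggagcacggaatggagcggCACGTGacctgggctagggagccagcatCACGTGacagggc
Slc12a9: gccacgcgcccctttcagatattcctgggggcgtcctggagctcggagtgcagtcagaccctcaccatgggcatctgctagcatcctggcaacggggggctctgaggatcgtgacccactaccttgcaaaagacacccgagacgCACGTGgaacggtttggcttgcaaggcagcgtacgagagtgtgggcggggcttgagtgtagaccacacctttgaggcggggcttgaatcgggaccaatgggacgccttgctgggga

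The class of lipid, choline and organic ion carriers held 12 genes, of which 2 rose and 4 fell (3 and 5 with the block). Slc27a4 (chromosome 2, 29802634 to 29817522 on the plus strand), a long-chain fatty acid transport protein with acyl-CoA synthetase activity, was the most abundant of all 168 genes. It rose to 693, 901 and 779.5 CPM with PGE2, against 402, 436 and 393 CPM with vehicle, or 315 ± 21 and 177 ± 10.1 TPM (SD, n = 3 each), a 1.93-fold difference (log2 fold change 0.95 ± 0.11, adjusted p = 0.000921). The other 2 fatty acid transport proteins of the set, Slc27a1 (0.32 ± 0.27) and Slc27a3 (0.38 ± 0.32), did not pass. They had 1.875 and 1.46 TPM over all libraries.

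Both choline transporter-like genes fell. Slc44a1 (chromosome 4, 53440387 to 53622478 on the plus strand), the choline carrier of plasma and mitochondrial membranes, had the largest fall of the 168 genes. It had 36.8, 34.2 and 35.3 CPM in the PGE2 libraries and 87.7, 115 and 126 CPM in the vehicle libraries, a log2 fold change of -1.63 ± 0.135 (adjusted p = 0.000298) or a 3.09-fold lower level with PGE2. The PGE2 libraries lay close together, and the highest of them had 36.8 CPM, against 87.7 CPM in the lowest vehicle library. Slc44a2 (chromosome 9, 21320719 to 21355028 on the plus strand), whose human form carries the neutrophil antigen HNA-3, was more abundant and fell to 150.4, 133 and 137 CPM, against 254, 271 and 298 CPM with vehicle (-0.97 ± 0.093, adjusted p = 0.000488).

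Of the organic cation and carnitine carriers, Slc22a5 (chromosome 11, 53864542 to 53891796 on the minus strand), which brings carnitine into cells, rose (8.23, 7.9 and 8.48 CPM with PGE2 and 5.17, 4.86 and 4.97 CPM with vehicle, log2 fold change 0.71 ± 0.13, adjusted p = 0.00598). On the log2(TPM + 1) scale it did not pass. Its neighbour Slc22a4, the ergothioneine carrier, 91319 bases away on the same strand of chromosome 11, was at -0.58 ± 0.20 and did not pass (adjusted p = 0.068; 0.00391 with the block, as lower). The difference between the changes of these 2 neighbours was not tested.

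Of the 34 mitochondrial carriers of the Slc25 family, 3 rose and 5 fell, 7 and 8 with the block, with a median log2 fold change of -0.007. The count of rises was 6 without PGE2 replicate 1. The count of falls was 1 without PGE2 replicate 2 or vehicle replicate 2, 2 without vehicle replicate 3 and 3 without PGE2 replicate 3 or vehicle replicate 1. Summed, the family had 1149, 1111 and 1217 TPM with PGE2 and 1188, 1175 and 1162 TPM with vehicle, and the groups overlapped.

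Slc25a3 (chromosome 10, 91116574 to 91124046 on the minus strand), which brings phosphate into the matrix for ATP synthesis, had 199, 263 and 267 CPM with PGE2 and 109.5, 146 and 144 CPM with vehicle (1.83-fold, log2 fold change 0.87 ± 0.15, adjusted p = 0.0047), and 263 ± 40.8 and 154.5 ± 14.9 TPM. Slc25a33 (chromosome 4, 149744036 to 149774267 on the minus strand), a pyrimidine nucleotide carrier, had 80.1, 102 and 102 CPM with PGE2 and 46.7, 55.3 and 53.3 CPM with vehicle (1.83-fold, 0.87 ± 0.12, adjusted p = 0.00177). In the annotation, 14.9% of its exon bases are shared with Gm13068 on the opposite strand. Slc25a51, which brings NAD+ into mitochondria, had 127, 164 and 122 CPM with PGE2 and 91.5, 100.1 and 102 CPM with vehicle (0.495 ± 0.12, adjusted p = 0.021), and lost its call without vehicle replicate 1 (0.0558) or 2 (0.0613). For none of these 3 did the groups overlap.

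Among the falls was Slc25a12, an aspartate-glutamate carrier of the malate-aspartate shuttle, which carries reducing equivalents into mitochondria. It had 33.2, 30.6 and 31.6 CPM with PGE2 and 57.4, 61.4 and 61.8 CPM with vehicle and was 1.89-fold lower (-0.92 ± 0.082, adjusted p = 0.000371). Slc25a11, the oxoglutarate-malate carrier of that shuttle, was named after its values were seen and fell by 0.47 on the log2 scale (SE 0.115, adjusted p = 0.0198). Slc25a13, the other aspartate-glutamate carrier, was at 0.33 ± 0.22 and did not pass, with 1.56 TPM against 22.7 TPM for Slc25a12 over all libraries. Slc25a24, a calcium-dependent carrier of ATP-Mg and phosphate, had 67.15, 40.6 and 34.1 CPM with PGE2 and 120.2, 91.45 and 78 CPM with vehicle (-1.03 ± 0.26, adjusted p = 0.0222). Its values in replicate 1 were the highest of each group, and its call was lost without PGE2 replicate 2 (0.0757), PGE2 replicate 3 (0.068), vehicle replicate 1 (0.076) or vehicle replicate 2 (0.0516). The ADP/ATP carrier Slc25a5 had 128, 119 and 137.5 CPM with PGE2 and 123, 142 and 147 CPM with vehicle, overlapped and did not pass (-0.10 ± 0.099, adjusted p = 0.514).

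The signal of EP2 and EP4 is known to reach the transcription factor CREB, which binds the sequence TGACGTCA and its core TGACG. The full sequence was found in the windows of 3 of the 132 genes (2.27%), against 2.03% of all genes. They are Slc25a25, Slc25a36 and Slc38a6, named after their values were seen, and none was called, but with the block Slc25a25 was higher (0.0182) and Slc25a36 lower (0.0255). The core, which is contained in the full sequence, was found on either strand in 6 of the 10 genes that rose and have a window (60.0%), in 6 of the 26 that fell (23.1%), in 32 of the 96 that did not pass (33.3%) and in 23.0% of all genes. The genes that rose with a match were Slc25a3, Slc25a33, Slc22a5, Slc30a9, Slc41a1 and Slc7a6os. The largest rise, Slc3a2, has none in its window. These counts describe 10 genes, and a window without a match says only that the letters are not in it. The windows of Slc25a3 (chr10:91123958-91124217), Slc25a33 (chr4:149774258-149774517) and Slc22a5 (chr11:53891694-53891953), all on the minus strand of GRCm38.p6, are shown from 250 bases before to 10 after the start, 5′ to 3′ on the strand of the gene, since they are the 3 largest rises with the core. TGACG, or CGTCA where it is on the other strand, is in capitals.
Slc25a3: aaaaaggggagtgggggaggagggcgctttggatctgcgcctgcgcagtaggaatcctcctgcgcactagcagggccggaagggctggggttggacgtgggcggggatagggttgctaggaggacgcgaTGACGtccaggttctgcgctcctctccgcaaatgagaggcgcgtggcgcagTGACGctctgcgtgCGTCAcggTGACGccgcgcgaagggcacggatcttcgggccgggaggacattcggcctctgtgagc
Slc25a33: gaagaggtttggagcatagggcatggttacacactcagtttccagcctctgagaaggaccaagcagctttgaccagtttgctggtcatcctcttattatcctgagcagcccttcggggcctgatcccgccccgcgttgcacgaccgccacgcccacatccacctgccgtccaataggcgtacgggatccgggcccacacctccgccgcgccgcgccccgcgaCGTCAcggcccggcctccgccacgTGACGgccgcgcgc
Slc22a5: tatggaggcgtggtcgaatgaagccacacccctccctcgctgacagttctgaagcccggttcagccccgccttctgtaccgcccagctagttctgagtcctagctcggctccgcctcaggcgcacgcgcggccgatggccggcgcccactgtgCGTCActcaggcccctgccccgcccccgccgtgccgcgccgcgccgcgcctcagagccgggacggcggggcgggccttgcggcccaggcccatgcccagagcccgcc
Slc25a3 holds 4 matches, which begin 121, 70, 56 and 48 bases before the start. Slc25a33 holds 2, which begin 28 and 4 bases before it, and the second overlaps a CACGTG. The only match of Slc22a5 begins 97 bases before its start. The deposited spans of Slc25a3 and Slc22a5 reach to 91124046 and 53891796, so the start sites of both windows lie inside the gene. So do the matches of Slc25a3 that begin 70, 56 and 48 bases before the start. The Slc36a1 window printed above also holds a TGACG, left in lower case there, although that gene fell.

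**Figure D4:**
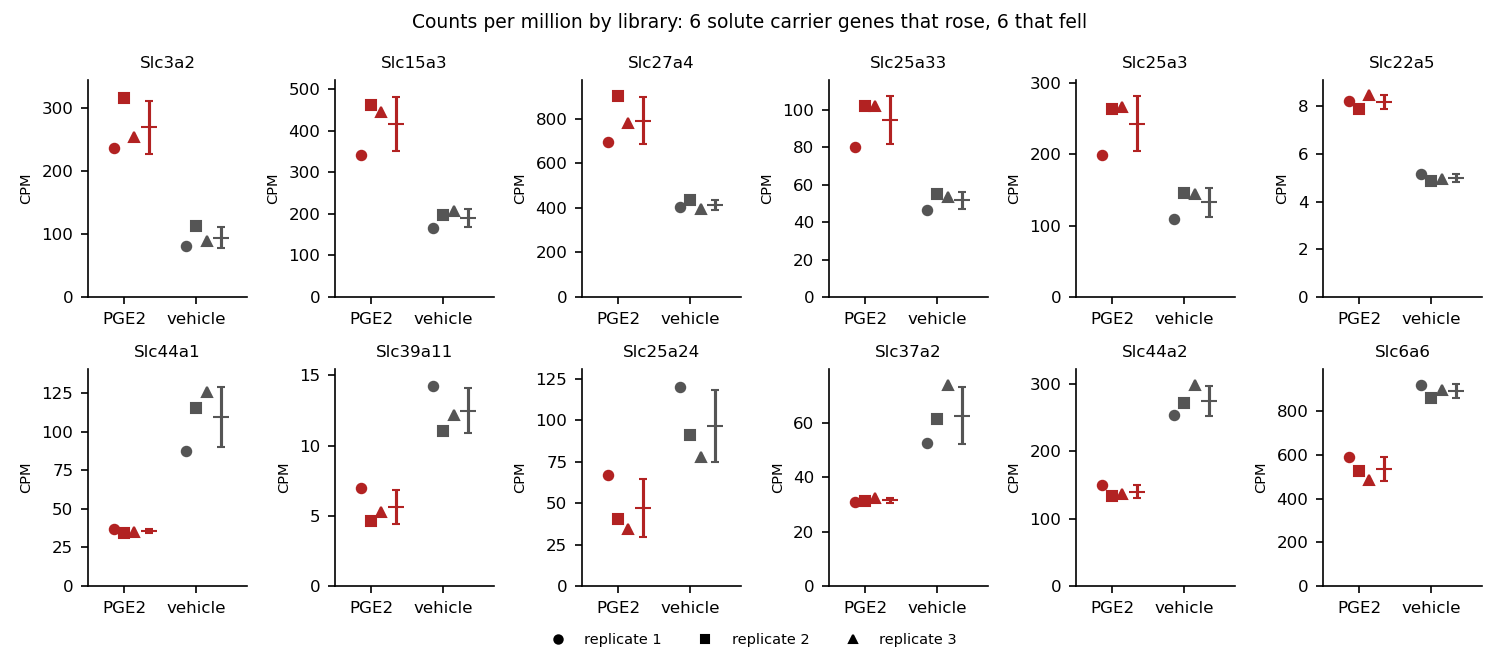
CPM in each library (PGE2 red, vehicle dark grey, shapes for replicate numbers) with the mean and SD of 3 libraries, for 6 genes that rose (top row) and 6 that fell (bottom row); each axis starts at 0. The PGE2 and vehicle points do not overlap in any of the 12 panels, and the PGE2 points of Slc44a1 and Slc37a2 lie close together.

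Of 22 carriers of inorganic ions and protons, none rose and 6 fell, with a median log2 fold change of -0.202 (3 and 8 with the block; for the count of 0, 2 were higher at an unadjusted p under 0.05 in edgeR and 0 with DESeq2). The falls were 27.3% of the class, where 19.2% of protein-coding genes of like level were lower and 12.4% higher. Without PGE2 replicate 3 or vehicle replicate 3, 1 rose. In the Slc26 family of anion exchangers, Slc26a2 (-0.74 ± 0.18), Slc26a11 (-0.66 ± 0.13) and Slc26a8 (-0.88 ± 0.25) fell, with adjusted p of 0.0198, 0.00876 and 0.0375. The other Slc26 gene of the set, Slc26a6, was at -0.003 ± 0.23 (adjusted p = 0.993). Slc26a2, Slc26a11 and Slc26a6 were chosen after their values were seen. Slc26a8, near the lower limit of counts, had 1.325, 1.68 and 1.93 CPM with PGE2 and 3.56, 3.14 and 2.42 CPM with vehicle, and its call was lost without PGE2 replicate 1 (0.0899) or 2 (0.0831) or vehicle replicate 1 (0.132) or 2 (0.11).

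The cotransporters of chloride are switched by the WNK kinases through SPAK, the product of Stk39. Of 6 such kinase genes and adaptors tested, 1 passed. Stk39 had 2.43, 1.61 and 2.09 CPM with PGE2 and 8.36, 6.28 and 5.72 CPM with vehicle, a 3.32-fold fall (-1.73 ± 0.23, adjusted p = 0.00151), while Wnk1 (-0.22 ± 0.12, adjusted p = 0.236) did not pass. Of 11 ion pump genes tested, which move sodium, potassium, calcium and copper with ATP, 1 rose and 5 fell. Atp1b3, a subunit of the sodium-potassium pump, had 511, 589 and 558 CPM with PGE2 and 237, 284 and 328 CPM with vehicle and rose (0.97 ± 0.13, adjusted p = 0.00139). With the block, 3 pump genes rose and 5 fell. Without it, 9.09% of the pump genes were higher and 45.5% lower, against 10.1% and 14.3% of all genes tested.

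Of 21 carriers of metals and heme, 3 rose and 5 fell, with a median log2 fold change of -0.041 (4 and 6 with the block). Summed, they had 369.0, 304.4 and 363.6 TPM with PGE2 and 446.1, 437.4 and 444.8 TPM with vehicle, and no PGE2 library reached the lowest vehicle library. The zinc carrier Slc39a11 fell to 6.96, 4.63 and 5.29 CPM with PGE2, against 14.2, 11 and 12.2 CPM with vehicle (2.22-fold lower, log2 fold change -1.15 ± 0.19, adjusted p = 0.0034). Slc41a3 of the magnesium carrier family fell (8.92, 7.44 and 7 CPM with PGE2 and 12.9, 16 and 14 CPM with vehicle, -0.88 ± 0.15, adjusted p = 0.00374) and its relative Slc41a1 rose (7.69, 6.25 and 7.1 CPM with PGE2 and 5.26, 4.74 and 5.09 CPM with vehicle, 0.48 ± 0.15, adjusted p = 0.05). The difference between the 2 changes was not tested. Chosen after their values were seen, further falls were in the copper carrier Slc31a2 (-0.72 ± 0.19, adjusted p = 0.029) and the zinc importer Slc39a4 (-0.71 ± 0.17, adjusted p = 0.0197), beside that of Slc48a1, above. The copper importer Slc31a1, 62171 bases from Slc31a2, did not pass (0.215 ± 0.18).

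The other rises among metal carriers were Slc30a9 (0.49 ± 0.12, adjusted p = 0.0194) and the zinc importer Slc39a6 (0.43 ± 0.12, adjusted p = 0.0306). None of the 3 rises held when every library was left out in turn. The calls on Slc39a6 and Slc41a1 were lost without any of the 6 libraries (adjusted p 0.0523 to 0.103 and 0.0539 to 0.15), and that on Slc30a9 without PGE2 replicate 2 (0.0599) or vehicle replicate 3 (0.0534). The count of rises in the class was accordingly 0 or 1 without any library, and the count of falls was 3 without PGE2 replicate 2 and 2 without vehicle replicate 2. Slc39a7, the most abundant zinc carrier at 90.7 TPM, did not pass (-0.10 ± 0.096, adjusted p = 0.496), and 80.7% of its exon bases are shared with Gm20427 on the same strand. Of 3 zinc buffering genes tested, none passed in edgeR, with or without the block, or in DESeq2, and 0 had an unadjusted p under 0.05, with Mtf2 at 0.14 and Mtf1 at -0.066.

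The Slc35 family includes carriers that bring nucleotide sugars into the Golgi apparatus for glycosylation. Its 20 genes here, taken by family number as the class of nucleotide sugars, held no rise and 5 falls (2 and 6 with the block). For the count of 0, 3 were higher at an unadjusted p under 0.05 in edgeR and 0 with DESeq2. The median log2 fold change was 0.033, with 12 genes above 0 and 8 below. Summed, the family had 344.1, 298.1 and 328.4 TPM with PGE2 and 433.1, 387.7 and 407.3 TPM with vehicle. Slc35c1, the GDP-fucose carrier whose loss in people impairs the selectin ligands of neutrophils, had 31.2, 31.6 and 31.4 CPM with PGE2 and 44.8, 47.2 and 41.3 CPM with vehicle and fell 1.41-fold (-0.50 ± 0.087, adjusted p = 0.00467). Its relative Slc35c2 had 39.9, 38.5 and 36.3 CPM with PGE2 and 54.5, 53.5 and 58.2 CPM with vehicle (-0.54 ± 0.084, adjusted p = 0.00296), and Slc35e1, the most abundant of the family at 77.8 TPM, had 289, 260.3 and 247 CPM with PGE2 and 392, 376 and 354 CPM with vehicle (-0.49 ± 0.089, adjusted p = 0.00555). Named after their values were seen, Slc35a1 and Slc35a2, the carriers of CMP-sialic acid and UDP-galactose, were at 0.37 ± 0.165 and 0.37 ± 0.15 and did not pass (adjusted p = 0.146 and 0.105; with the block Slc35a2 passed as higher, 0.0374). The count of falls was 3 without PGE2 replicate 3, vehicle replicate 2 or vehicle replicate 3, and 1 gene rose without PGE2 replicate 1 or 3.

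Of 10 carriers of sugars and inositol, 1 rose and 4 fell. Beside Slc37a2, the largest fall was in Slc45a4, of a family of proton-coupled sugar carriers, with 15.2, 14.3 and 15.2 CPM with PGE2 and 26.4, 27.3 and 31.7 CPM with vehicle (-0.935 ± 0.11, adjusted p = 0.000871). Slc2a6, the most abundant gene of the class, had 264, 286 and 283 CPM with PGE2 and 207, 275.5 and 298 CPM with vehicle, overlapped and did not pass (0.092 ± 0.13, adjusted p = 0.666). The rise, in Slc50a1 (0.39 ± 0.12, adjusted p = 0.0422), was chosen after its values were seen, and no gene of the class rose without PGE2 replicate 1 or 3 or any vehicle library.

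Of 10 carriers of nucleosides and vitamins, none rose and 1 fell (1 rose with DESeq2 and with the block). Slc28a2, which takes up purine nucleosides with sodium, had 49.4, 48.9 and 48.6 CPM with PGE2 and 74.5, 68.7 and 75.4 CPM with vehicle (1.49-fold lower, log2 fold change -0.57 ± 0.079, adjusted p = 0.00167). Slc43a3, a purine nucleobase carrier, was at 0.385 ± 0.12 and did not pass (adjusted p = 0.0537), but did with the block (0.0184) and without vehicle replicate 1 (0.0299). Without PGE2 replicate 1, 1 gene of the class rose and 2 fell. The folate carrier Slc19a1 had 2.06, 2.22 and 2.915 CPM with PGE2 and 1.44, 1.97 and 1.78 CPM with vehicle and did not pass (0.47 ± 0.25, adjusted p = 0.22).

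Of 7 carriers of carboxylates, phosphate and sulfate, 1 fell (2 with the block and 3 on the TPM scales). This was Slc17a9, which fills vesicles with ATP, at 11.9, 12.15 and 11.4 CPM with PGE2 and 24.1, 20.1 and 19.3 CPM with vehicle (1.79-fold lower, -0.84 ± 0.12, adjusted p = 0.00208). The class summed to 85.6, 78.96 and 87.99 TPM with PGE2 and 114.8, 99.29 and 115.8 TPM with vehicle. The phosphate importer Slc20a1 had 49.4, 60.4 and 54.7 CPM with PGE2 and 57, 73.5 and 86 CPM with vehicle, and did not pass (-0.40 ± 0.15, adjusted p = 0.0966). It passed as lower with the block (0.0168), with DESeq2's Wald test, on both TPM scales and without vehicle replicate 1 (0.0205). Slc16a6, a monocarboxylate carrier family member at 38.3 TPM, was at -0.03 ± 0.091 (adjusted p = 0.85), and 21.5% of its exon bases are shared with Amz2 on the opposite strand. Slc49a4, of a family outside these classes, had 24.2, 22.4 and 27.6 CPM with PGE2 and 20.8, 24.6 and 24.3 CPM with vehicle and did not pass (0.09 ± 0.12, adjusted p = 0.638).

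Among the 4 genes named after a carrier, 1 rose and 1 fell, and 2 rose without PGE2 replicate 1 or with the block. Slc9a3r2, a scaffold that anchors sodium-proton exchangers and other membrane proteins, had 2.29, 1.76 and 2.01 CPM with PGE2 and 5.87, 4.935 and 4.525 CPM with vehicle (2.53-fold lower, -1.34 ± 0.20, adjusted p = 0.00247). Its more abundant relative Slc9a3r1 had 224, 254 and 246 CPM with PGE2 and 196, 212 and 209 CPM with vehicle, did not overlap and did not pass (0.23 ± 0.083, adjusted p = 0.0782; 0.0283 with the block and 0.0407 without PGE2 replicate 1). In TPM, Slc9a3r2 was at 1.5 ± 0.405 with PGE2 and 4.19 ± 0.888 with vehicle, far below the 204 ± 14.2 and 187 ± 4.475 of Slc9a3r1. Slc7a6os, which lies 1724 bases from Slc7a6 on the other strand, rose (22, 27.7 and 25.9 CPM with PGE2 and 16.1, 17.45 and 15 CPM with vehicle, 0.64 ± 0.12, adjusted p = 0.00692), while Slc7a6 was at 0.075. Of 12 partner proteins of carriers tested, which include these scaffolds, 1 rose and 2 fell (3 and 2 with the block; 2 rose without PGE2 replicate 1, and 1 fell without PGE2 replicate 2 or vehicle replicate 2 or 3). The rise was in Bsg (basigin, the chain that monocarboxylate carriers need), with 116, 136.5 and 113.5 CPM with PGE2 and 78.9, 83.2 and 78.2 CPM with vehicle (0.605 ± 0.095, adjusted p = 0.00309).

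Several members are known from red cell precursors, and are set here beside the hemoglobin genes. Those came to 1.57, 4.87 and 2.51% of a library's counts with PGE2 and to 0.413, 1.86 and 1.11% with vehicle. On a list of 10 carriers known in red cell precursors, 9 were tested, 8 of them among the 168, and 1 rose. This was the urea carrier Slc14a1, with 10.5, 11.1 and 9.73 CPM with PGE2 and 6.7, 7.45 and 6.73 CPM with vehicle (0.59 ± 0.13, adjusted p = 0.0123; not passed on the log2(TPM + 1) scale). The anion exchanger of red cells, Slc4a1, had the third largest log2 fold change of the set above 0 (1.085 ± 0.40), with 294, 556 and 186 CPM with PGE2 and 145.5, 232 and 111 CPM with vehicle. Replicate 2 was the highest library of each group, and the groups overlapped (adjusted p = 0.0863). The amino acid carriers Slc43a1 (27.7, 47.5 and 23.3 CPM with PGE2 and 11.6, 23.9 and 15.35 CPM with vehicle, 0.955 ± 0.32, adjusted p = 0.0657) and Slc6a9 (8.305, 15.3 and 6.69 CPM with PGE2 and 4.39, 6.655 and 4.93 CPM with vehicle, 0.93 ± 0.32, adjusted p = 0.0677) were also highest in replicate 2. With the replicate block 5 of the 9 rose, with 0.00023 for Slc4a1, 0.000886 for Slc43a1 and 0.00509 for Slc6a9, 1 fell, and all 11 red cell markers tested rose. Leaving out PGE2 replicate 3 gave 4 rises, leaving out vehicle replicate 2 gave 2, and leaving out vehicle replicate 3 gave 1 rise and 1 fall. These 3 genes were chosen after their values were seen. Of the mitochondrial carriers of the list, Slc25a37 for iron (-0.17 ± 0.17) and Slc25a38 for glycine (-0.015 ± 0.10) did not pass in either fit. Slc25a39, named after its values were seen, was at 0.305 ± 0.21 (adjusted p = 0.34) and passed as higher with the block (0.0256). Slc14a1, Slc25a37, Slc25a38 and Slc25a39 were highest in replicate 2 of each group as well. The part of red cell precursors in these differences was not tested.

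**Figure D5:**
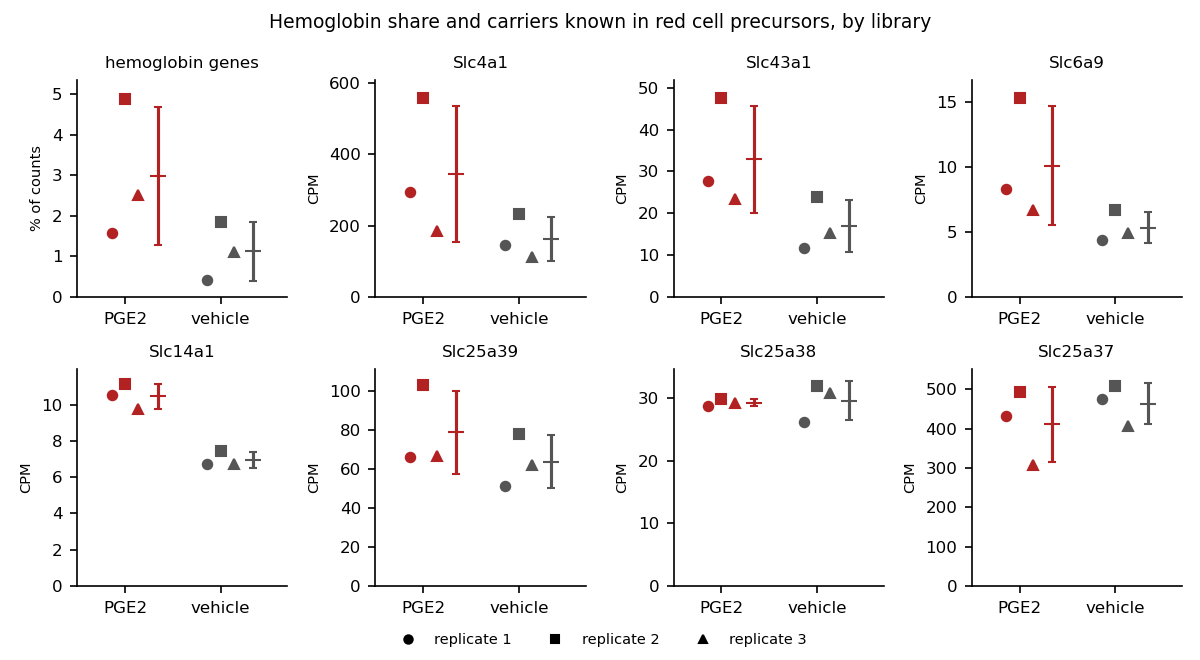
Share of counts from hemoglobin genes (percent) and CPM of 7 carriers known in red cell precursors in each library (PGE2 red, vehicle dark grey, shapes for replicate numbers) with the mean and SD of 3 libraries; axes start at 0. Replicate 2 is the highest library of each group in all 8 panels, and the groups are apart in Slc6a9 and Slc14a1.

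Carriers without an Slc symbol were taken as a list of 51, of which 41 were tested, 1 rose and 14 fell (5 and 15 with the block), with a median log2 fold change of -0.128. Without the block these were 2.44% and 34.1% of the list, against 10.1% and 14.3% of all genes tested. The organic anion transporter Slco4a1 had 15.7, 14.9 and 13.4 CPM with PGE2 and 46.6, 41.5 and 51.7 CPM with vehicle, a 3.18-fold fall (-1.67 ± 0.12, adjusted p = 0.000202), and Tmem104 fell as well (-0.99 ± 0.13, adjusted p = 0.00137). The rise, in the mitochondrial Mtch2, was named after its values were seen and was lost without PGE2 replicate 1 or 2 or vehicle replicate 2. Of 29 ABC transporters, which use ATP in place of a gradient, 3 rose and 7 fell (6 and 9 with the block). The lipid exporter Abca1 had 33.75, 63.8 and 45.1 CPM with PGE2 and 9.93, 11.1 and 11.9 CPM with vehicle, a 4.32-fold rise (2.11 ± 0.22, adjusted p = 0.000623), and Abca2 fell (-1.13 ± 0.13, adjusted p = 0.00087).

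Amino acids that carriers bring in are sensed at the lysosome by the regulators of mTORC1. Of 36 such genes, all tested, 3 rose and 5 fell (5 and 8 with the block), a median log2 fold change of -0.026. The smallest adjusted p was that of Fnip2, a partner of folliculin, with 37.5, 36.95 and 24.1 CPM with PGE2 and 78.6, 85.7 and 76.4 CPM with vehicle (log2 fold change -1.29 ± 0.17, adjusted p = 0.00134). Of the rises, 0 were left on the TPM scales. The count of rises was 0 to 2 and the count of falls 3 to 6 when a library was left out.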

How the data were processed

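RNA was measured in 6 libraries of bone marrow neutrophils, 3 kept with PGE2 and 3 with vehicle; groups and replicate numbers come from the sample titles. The authors deposited estimated counts per gene, whole numbers whose totals differ between libraries, and TPM per gene. The build was mm10 and the tools were RSEM, STAR, Bowtie2, DESeq2 and StringTie 2.1.3b, per the submitters' processing notes, which as listed here give them no role or order. Another 18 value columns of 6 other libraries in the table were not used.

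Genes with at least 10 counts in at least 3 libraries were tested, 15947 of 45777, and all 168 solute carriers were among them. The test was the two-sided quasi-likelihood test of edgeR 4.0.16 (R 4.3.3) with TMM scaling, Benjamini-Hochberg adjustment over all genes tested and a threshold of 0.05. CPM values carry the same scaling. On simulated counts with 200 of 15487 genes changed, 9.76% of 1.5-fold, 50.8% of 2-fold and 84.7% of 4-fold changes were found, and 7.37% of the calls were false. Smaller changes were thus often missed there. The changed genes were drawn from all levels of count, and in the data 24.4% of the genes tested were called. The simulated rates therefore cannot be taken as the rates for the 168 genes. With 3 libraries a group, a p-value sets the difference between groups against the spread between these libraries, estimated with the help of all genes tested.

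Libraries with the same number deviated together from their group means (r = 0.26, 0.17 and 0.19, against -0.17 to 0 for unlike numbers). The block takes the numbers as pairs, but no label explains them, so it is an alternative to the test. The test has no block; blocked values stand beside calls that they change and counts that they move by over 1.5 times. Alternatives were the block, DESeq2 1.42.0 (its size factors and its Wald test), library totals, other filters, limma 3.58.1 on log2(TPM + 1) and log2(TPM + 0.1), a minimum log2 fold change of 0.5 and leaving out each library. Genes and lists were chosen with earlier results of these data known. Named were the 12 largest rises and 12 largest falls without overlap, the 2 smallest adjusted p per class, the 8 highest levels and the highest of each class, the genes nearest the count limit, the called lysosomal and red cell carriers and the 2 smallest adjusted p of each other list; further genes are marked as chosen after their values were seen. Positions are those the authors deposited with the values of each library (mm10). Exon overlaps come from GENCODE M21 (mm10), where 167 genes matched, and promoter windows from RefSeq (GRCm38.p6). Some items that this rule names are not reported here.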

Additional observations from a re-analysis of the deposited data

How the results depend on the processing

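Precision is limited by 3 libraries a group and by calls that rest on single libraries. Genes that rose numbered 14, and 33 with the replicate block, 23 with library totals, 22 with the DESeq2 Wald test, 8 with log2(TPM + 1), 8 with log2(TPM + 0.1) and 4 with a minimum log2 fold change of 0.5. Genes that fell numbered 37, and 8 with that minimum. Other settings moved both counts by less than 1.5 times, except that 24 fell without vehicle replicate 2. Leaving out a library gave 11 to 17 that rose, 24 to 34 that fell and a median log2 fold change of -0.019 to 0.05. That median was -0.007, and 0.08 with library totals, -0.11 with log2(TPM + 1) and -0.133 with log2(TPM + 0.1), where the median of all genes moved by 0.093, -0.102 and -0.116. The block added 30 calls among the 168 genes and lost none.

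Of the genes named by the rule, 6 turned sign under a setting, none of which had passed. Slc16a6 was at 0.06 with library totals and between -0.1 and 0.03 without a library, and Mtf1 at 0.02 with totals and between -0.16 and 0.02 without a library. On both TPM scales Slc2a6 was at -0.01, Slc38a2 at -0.02 and Slc49a4 at -0.02, and without a library Slc2a6 lay between -0.04 and 0.2 and Slc9a5 between -0.5 and 0.07. Over all 168 genes, 36 turned sign under at least 1 setting, among them Slc7a1, Slc7a6, Slc7a8, Slc25a37, Slc25a38, Slc26a6 and Slc46a3, and 0 of the 36 had passed. By class, amino acid carriers had 7 rises with the DESeq2 Wald test and 5 with library totals or a filter of 50 counts. Mitochondrial carriers had 5 rises with the Wald test and 5 rises and 3 falls with totals, and nucleotide sugar carriers 3 rises with totals. Carboxylate carriers had 2 falls with the Wald test and 3 on both TPM scales, where 1 rise was left of metal carriers, 1 of lipid carriers and 0 of sugar carriers. Red cell carriers had 3 rises with the Wald test or totals and 0 on the TPM scales. With the minimum fold change, no class had more than 2 falls. On log2(TPM + 1) the class median was -0.07 for amino acid carriers, -0.06 for nucleotide sugar carriers and -0.05 for lipid carriers. With library totals it was 0.08 for mitochondrial, 0.05 for metal and 0.02 for sugar carriers. Each of these was of the other sign than without the setting. Beyond the construction of each setting, the cause was not tested.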
